A study of Mus musculus with 6 samples.

Results

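The xenobiotic-metabolizing enzyme families described here are the P450 genes of families Cyp1 to Cyp4, the UDP-glucuronosyltransferases of families Ugt1 and Ugt2, the cytosolic and kappa-class glutathione S-transferases (Gsta, Gstm, Gstp, Gstt, Gstk, Gsto) and the Sult1 sulfotransferases. They were chosen by gene symbol, and a row was kept when its counts summed to 10 or more over the 6 libraries, a sum that did not use the genotype. A gene could still pass through the counts of 1 genotype alone. Of 129 rows with such a symbol in a table of 21899 genes, 76 passed: 39 P450 genes, 12 UGT genes, 21 GST genes and 4 Sult1 genes. A further 37 rows had no count in any library, which allows at most 0.0261 CPM (3 counts over all libraries, counting error only), and 16 had 1 to 9 counts. The members nearest the threshold were Ugt2b1 with 11 counts and Cyp2j13 with 13, and the nearest rows left out were Cyp2c67 with 9 and Cyp3a59 with 7.

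RNA was sequenced from the colon of Adamts4 knockout (KO) and wild-type (WT) mice, 3 libraries each, and both groups had received 2.5% dextran sodium sulfate (DSS) for 7 days. DSS injures the colonic epithelium and gives an acute colitis, and ADAMTS4 is a secreted protease that cleaves large proteoglycans. The labels do not give the strain, sex, age or litter, nor say whether the knockout affects all cells or whether each library came from 1 animal. P-values therefore measure the spread between these libraries, and untreated animals were not analysed here.

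Total counts per library ran from 15786214 to 22932125, and Adamts4 had 0 counts in each KO library against 900, 992 and 997 in WT 1, WT 2 and WT 3. Epithelial marker genes were abundant, at 9370 to 12821 CPM summed in each library, where CPM stands for counts scaled to library size with TMM factors. One library stood apart: KO 3 had a score of 73.1 on the first principal component against -47.0 to 26.5 in the others. Mature colonocyte markers summed to 13656 CPM in KO 3, to 5200 in KO 1 and to 6443 to 8897 in the other libraries. Car1, a carbonic anhydrase gene, made 8524 CPM of the KO 3 sum. Without Car1, a check added after the values were seen, the other 11 markers summed to 5132 CPM in KO 3, within the 3918 to 5441 of the other libraries. Fibroblast markers summed to 653 CPM in KO 3 against 2195 to 4570. In tissue RNA, fewer cells of a type and less RNA per cell cannot be told apart, and the part of these marker shifts in the results below was not tested.

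Xenobiotic metabolism is usually described in phases. P450 enzymes, haem proteins of the endoplasmic reticulum that take electrons from P450 reductase, oxidise foreign compounds as well as fatty acids and eicosanoids. UGT, GST and SULT enzymes then attach glucuronic acid, glutathione or sulfate, and efflux transporters export the conjugates. In the gut these enzymes sit mainly in the epithelium, and several are induced by ligand sensors such as the aryl hydrocarbon receptor and the pregnane X receptor or by the oxidant sensor NRF2.

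Upstream sequences are shown for the 3 Cyp3a members, because Cyp3a25 and Cyp3a44 had groups that did not overlap while Cyp3a13 had groups that did, and for Gstm1, the most abundant gene of the mu-class cluster. Each is the 250 bases before the transcription start, from RefSeq on GRCm38.p6, in the direction of the gene. Cyp3a25 and Gstm1 have 2 such starts each in RefSeq, and the one shown matches the gene start in GENCODE. Capitals mark the motifs searched on both strands: AGGTCA, a nuclear receptor half-site; TGACNNNGC, the core of the antioxidant response element; GCGTG, the core of the aryl hydrocarbon receptor element; and TATAAA, the TATA box. TGACNNNGC and a reverse AGGTCA can overlap.
Cyp3a25, chr5:146009619-146009868, minus strand: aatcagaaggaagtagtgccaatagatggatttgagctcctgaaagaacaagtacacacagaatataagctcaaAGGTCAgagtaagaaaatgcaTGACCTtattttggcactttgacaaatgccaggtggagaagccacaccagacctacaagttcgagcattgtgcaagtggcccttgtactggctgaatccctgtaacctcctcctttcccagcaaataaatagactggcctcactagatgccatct
Cyp3a44, chr5:145805875-145806124, minus strand: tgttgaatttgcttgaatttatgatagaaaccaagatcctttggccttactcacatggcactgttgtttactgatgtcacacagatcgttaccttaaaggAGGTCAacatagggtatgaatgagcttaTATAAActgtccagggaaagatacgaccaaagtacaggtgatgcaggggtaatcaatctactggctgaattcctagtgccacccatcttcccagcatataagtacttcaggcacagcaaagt
Cyp3a13, chr5:137921620-137921869, minus strand: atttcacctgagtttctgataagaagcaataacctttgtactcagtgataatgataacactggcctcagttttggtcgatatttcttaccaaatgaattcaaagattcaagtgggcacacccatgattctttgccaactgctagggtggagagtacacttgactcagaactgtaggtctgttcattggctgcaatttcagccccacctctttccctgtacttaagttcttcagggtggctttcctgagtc
Gstm1, chr3:108017974-108018223, minus strand: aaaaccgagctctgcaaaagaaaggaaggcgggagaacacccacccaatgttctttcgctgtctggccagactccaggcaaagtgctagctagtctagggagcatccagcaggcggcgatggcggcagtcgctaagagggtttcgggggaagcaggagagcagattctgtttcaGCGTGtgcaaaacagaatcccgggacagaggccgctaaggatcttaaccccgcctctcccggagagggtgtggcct

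Cyp3a25 held an AGGTCA on the gene's strand and another on the opposite strand, and Cyp3a13 held none of the 4 motifs. Cyp3a44 held an AGGTCA on its own strand and a TATAAA 122 to 117 bases before the start. Gstm1 held a GCGTG. The window of its other start (chromosome 3, 108017819 to 108018068) also held a TATAAA, 30 to 25 bases before that start. In a global alignment the 250 bases of Cyp3a25 and Cyp3a44 were 55.5% identical, and those of Cyp3a13 were 52.6% identical to Cyp3a25 and 57.2% to Cyp3a44. RefSeq windows were found for 64 of the 76 members. AGGTCA was present upstream of 10 of these 64 (15.6%) and of 15.8% of all 27025 genes in the table, GCGTG of 29.7% and 30.9%, TATAAA of 18.8% and 14.3%, and TGACNNNGC of 7.81% and 11.5%. A match is a description of letters and not of binding.

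The colon's xenobiotic program was concentrated in few genes. On the TPM scale, which accounts for gene length, 18 members averaged at least 100 TPM over the 6 libraries, 43 at least 10, and 18 less than 1. Cyp2c55, a colon-rich P450 that hydroxylates arachidonic acid, led with 693 TPM, followed by the pi-class transferase Gstp1 (665), Gsto1, an omega-class enzyme that reduces dehydroascorbate (603), Gstm1 (258), the phenol sulfotransferase Sult1a1 (254) and Cyp4f14, a leukotriene hydroxylase (208). These 6 genes held 51.5% of the summed member TPM. Within families, Cyp3a13 held 98.1% of the Cyp3 TPM, Ugt2b34 81.6% of Ugt2 and Gsto1 99.9% of Gsto, while Cyp2d34 held 32.4% of the Cyp2d subfamily. Cyp1a1, the classical target of the aryl hydrocarbon receptor, averaged 0.154 TPM with 1 to 9 counts per library.

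In the comparison of KO with WT, 64 of the 76 members had enough counts to be tested, and 1 of them, Cyp3a25, passed in edgeR's quasi-likelihood test at an adjusted p below 0.05 over 14553 genes. Over all tested genes 0.151% were called lower and 0.00687% higher. Of the members, 44 had log2 fold changes (KO minus WT) above 0 and 20 below, with a median of 0.20, against a median of 0.03 and 54.2% above 0 for all genes. That lean rested on 1 library: without KO 3, 30 of 65 members were above 0 and their median was -0.04. An unadjusted p below 0.05 was found for 12 members, 6 in each direction, which is 18.8% of those tested against 13.0% of all genes. DESeq2 called 3 members, Cyp3a25 and Cyp3a44 lower and Gstm3 higher, where it called 2.97% of all genes lower, 0.806% higher and 3.78% in all. The 2 groups did not overlap for 15 of the tested members, 10 with KO higher (15.6%, against 9.34% of all tested genes) and 5 with KO lower (7.81%, against 10.2%).

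**Figure D1:**
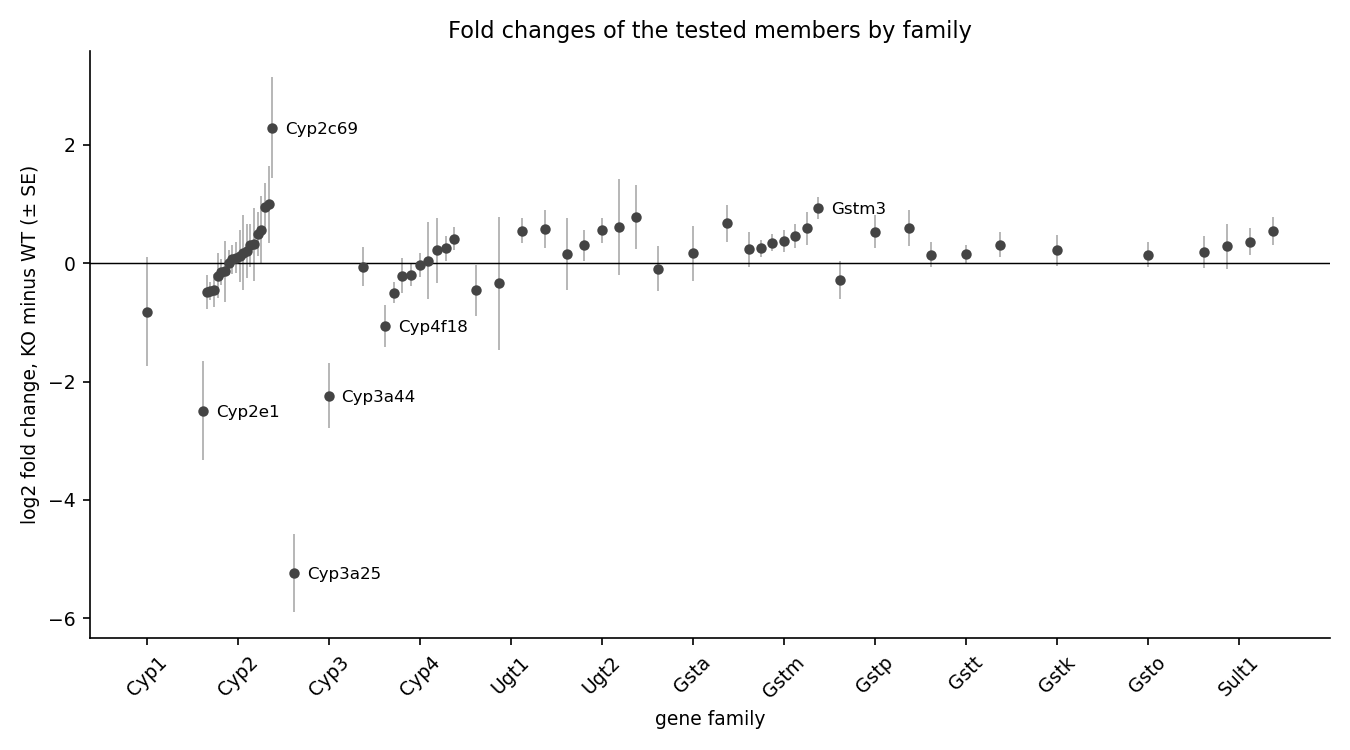
Log2 fold change of KO minus WT with its standard error (vertical axis) for each of the 64 tested members, grouped by family (horizontal axis) and ordered within it. The standard error is derived from edgeR's F statistic. Cyp3a25 lies lowest at -5.24, the 7 Gstm genes all lie above 0, and most other members lie within 1 log2 unit of 0.

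The 12 members that did not reach the test had a mean of at most 0.655 CPM in either group. In a fit of every gene with at least 10 counts their unadjusted p lay between 0.102 and 0.999. The spread between libraries differed by family. KO 3 was the highest of the 6 libraries for 32 of 64 tested members (against 23.0% of all tested genes), and KO 1 the lowest for 18 (28.1%, against 15.0%). The members highest in KO 3 were 11 of 33 P450, 5 of 9 UGT, 13 of 18 GST and 3 of 4 Sult1 genes. Those lowest in KO 1 were 12 P450, 5 UGT, 0 GST and 1 Sult1 genes.

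**Figure D2:**
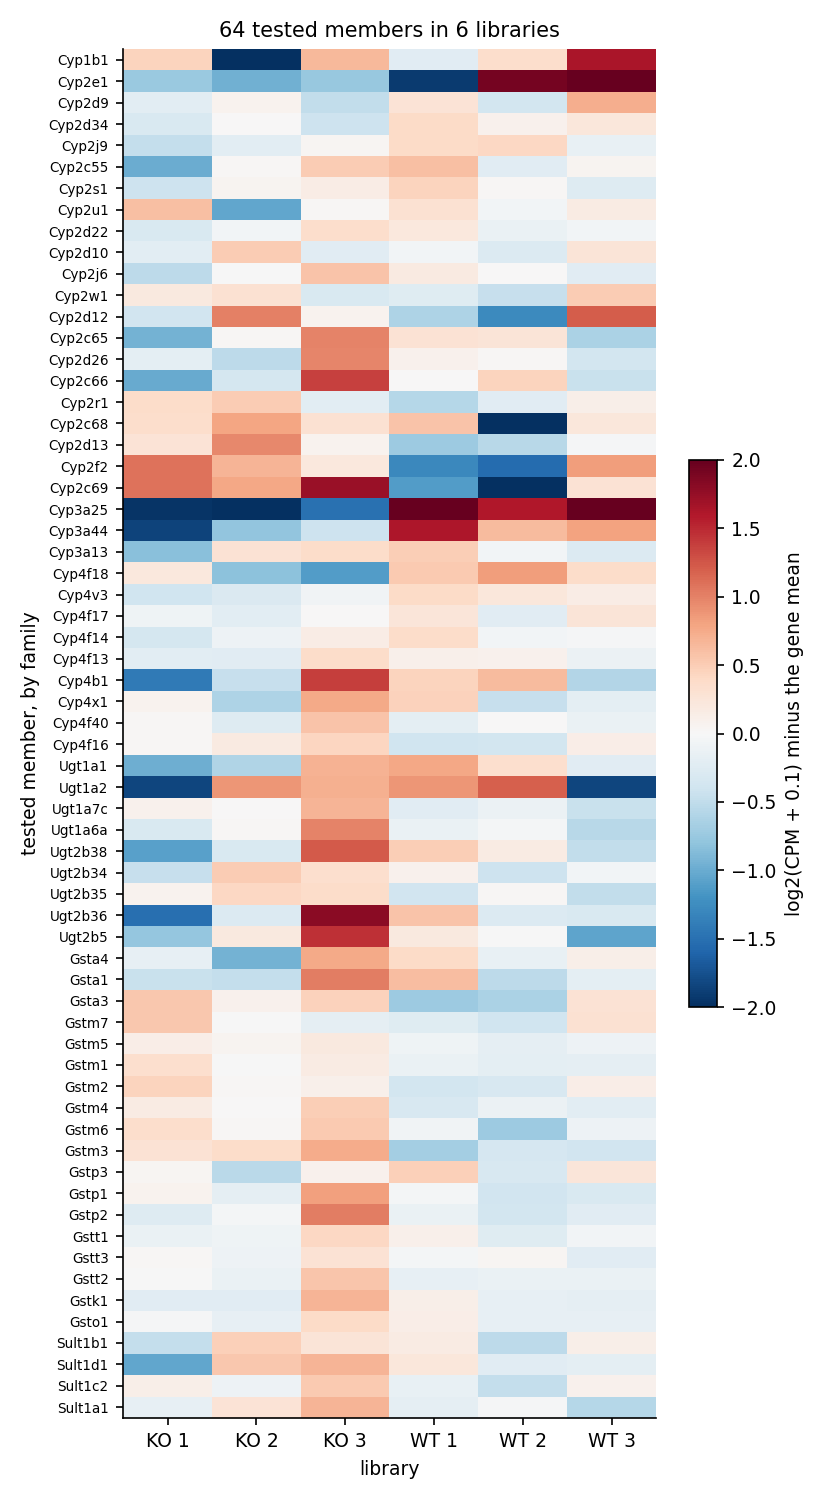
Each row is 1 of the 64 tested members, ordered by family and then by fold change, and each column a library. Colour gives log2(CPM + 0.1) minus the gene's mean, capped at 2 on either side. The KO 3 column is red in most UGT, GST and SULT rows, while the Cyp3a25 and Cyp3a44 rows separate the 2 genotypes.

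Among the phase I enzymes, the Cyp3a genes held the only called member. Cyp3a25 (ENSMUSG00000029630, chromosome 5, 145977194 to 146009618 on GRCm38, minus strand) had 0.0514, 0 and 0.107 CPM in KO 1, KO 2 and KO 3 and 2.99, 1.68 and 2.25 CPM in WT 1, WT 2 and WT 3. The groups did not overlap, and the KO values rest on 3 counts in all against 143 in WT. Cyp3a25 therefore met the count threshold for members through its WT counts alone. With so few KO counts it could be a member only if WT was higher, so its direction is not independent of membership. Cyp3a25 fell by 5.24 on the log2 scale (SE 0.65, edgeR adjusted p = 0.0483). The count ratio of WT to KO was 42.5 with a 95% exact interval of 14.3 to 209 for counting error. The SE was derived from the test's F statistic and is symmetric, while this interval reaches further above the ratio than below it. The SE is therefore only a rough guide to the error of so few KO counts. No fit that left out 1 library called it (adjusted p 0.0615 to 0.201), nor did median-ratio factors (0.0543) or the fit without an expression filter (0.0512), which called no member and 0.0619% of all genes.

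Cyp3a44, which lies in the same cluster (145773983 to 145805874), was the other low member of the family. It stood at 0.154, 0.434 and 0.590 CPM in the KO libraries and 2.74, 1.32 and 1.52 CPM in the WT libraries. The groups did not overlap and the log2 fold change was -2.24 ± 0.55, but the adjusted p was 0.162 in edgeR and 0.0281 in DESeq2. Between them lies Cyp3a11 and beyond them Cyp3a59, both under the count threshold and Cyp3a11 named after its values were seen. Cyp3a11 had 6 counts and Cyp3a59 had 7, and none of either was in a KO library. Reads could be shared within the cluster: 26.8% of the 50-base windows of Cyp3a25 transcripts also occur in another gene, mainly Cyp3a59, as do 26.5% of those of Cyp3a44. The longest reading frames of Cyp3a25 and Cyp3a44 were 76.2% identical. The 8 hepatocyte markers, also low, summed to 2.36, 3.47 and 1.40 CPM in KO and 3.12, 1.73 and 2.92 in WT, which overlapped. Alb had 1.90, 2.29 and 0.644 CPM in KO and 0.128, 0.153 and 0.842 in WT. Without Alb, a check added after the values were seen, the sum did not overlap. It was 0.462, 1.18 and 0.751 CPM in KO and 2.99, 1.58 and 2.08 in WT. The part of such transcripts in the Cyp3a25 and Cyp3a44 values was not tested.

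Cyp3a13, the intestinal Cyp3a enzyme, lies apart on the same chromosome (137892932 to 137921619) and shares no 50-base window with another gene. It had 95.9, 209 and 220 CPM in the KO libraries and 240, 165 and 141 in the WT libraries. These ranges overlapped, the log2 fold change was -0.06 ± 0.33 (adjusted p = 0.955), and its level over the 6 libraries averaged 109 TPM against 1.09 TPM for Cyp3a25. The summed level of the Cyp3 family was therefore 175 ± 68.8 CPM in KO and 186 ± 52.8 in WT (SD, n = 3).

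In the Cyp2 family 13 of 20 tested members had log2 fold changes above 0 and 7 below, with a median of 0.10. Cyp2c55 had 364, 739 and 1033 CPM in the KO libraries and 1102, 621 and 753 in the WT libraries, and its neighbour Cyp2c65 had 78.7, 154 and 301 and 184, 181 and 97.2. Both spread over more within KO than between the group means (log2 fold changes of -0.21 ± 0.38 and 0.21 ± 0.45). Without KO 3 the Cyp2 median was -0.19.

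Cyp2e1, which oxidises ethanol and small solvents and is also expressed in fat, showed the greatest split within a group. It had 10.9, 9.42 and 10.8 CPM in KO 1, KO 2 and KO 3 but 4.83, 69.8 and 102 in WT 1, WT 2 and WT 3. WT 1 lay below all KO libraries, so the groups overlapped, and the log2 fold change of -2.50 ± 0.84 had an adjusted p of 0.276. Leaving out WT 1 gave -3.05 and an adjusted p of 0.00804, the only alternative fit in which Cyp2e1 was called. The 6 adipocyte markers followed the same order within WT: their summed level was 71.3 CPM in WT 1, 257 in WT 2 and 453 in WT 3, and 76.7 to 129 in KO. Adipoq, the defining adipocyte hormone gene, had 0.855, 16.1 and 34.9 CPM in the 3 WT libraries and 5.39 to 8.94 in KO. None of the 5 tested markers passed in edgeR, and all 5 were below 0 (median -1.24). The part of attached fat in the Cyp2e1 values was not tested.

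**Figure D3:**
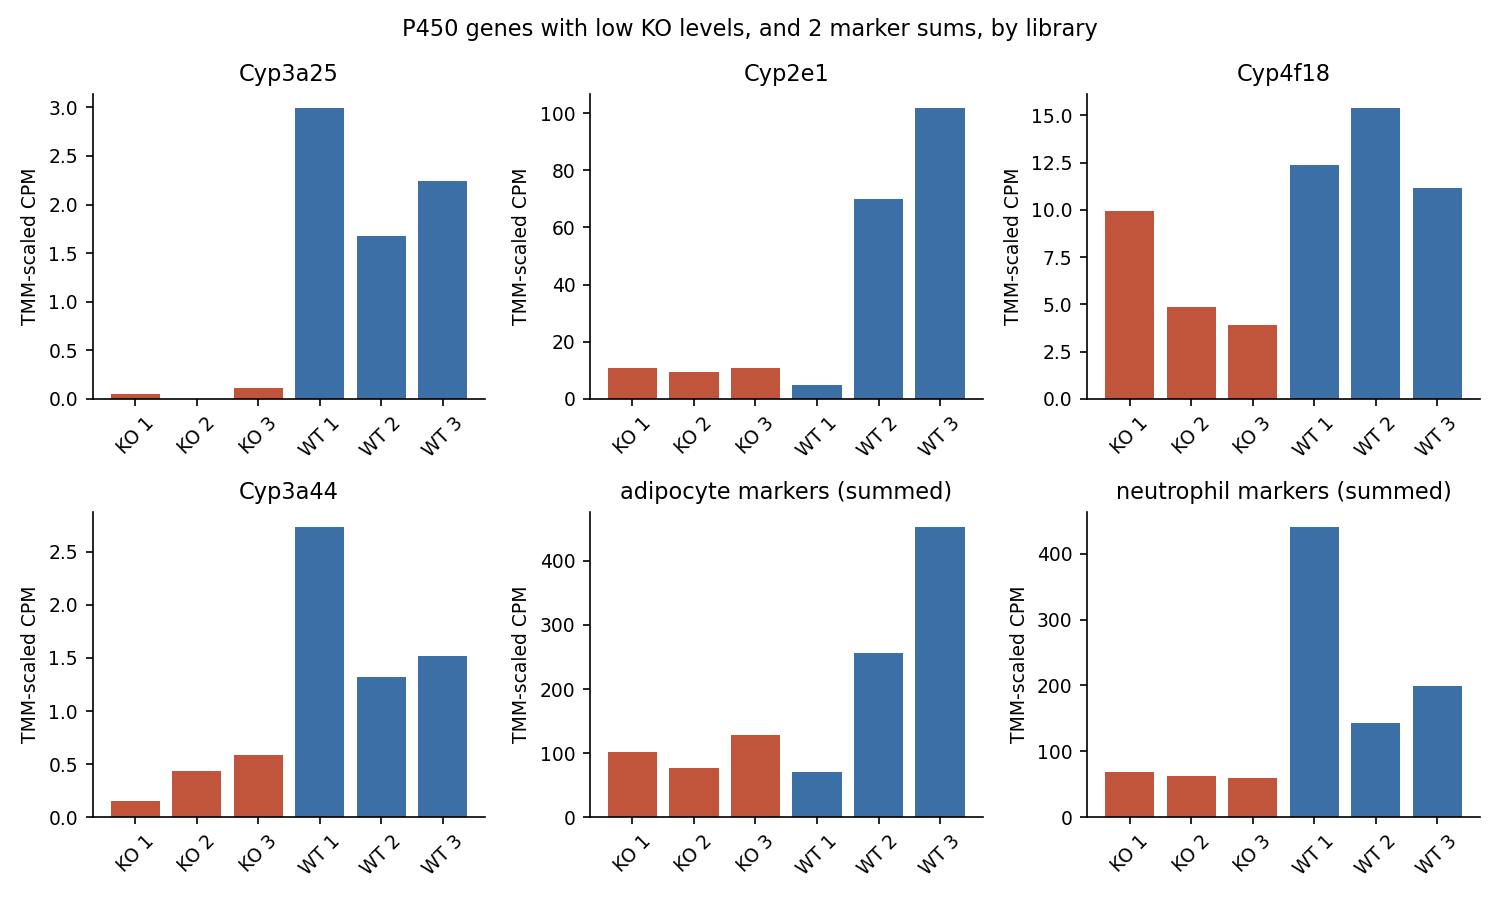
TMM-scaled CPM in each library (bars; horizontal axis, KO in red and WT in blue) for 4 P450 genes and the summed levels of 6 adipocyte and 7 neutrophil markers. Cyp3a25 and Cyp3a44 are low in every KO library, while Cyp2e1 is also low in WT 1, as the adipocyte sum is.

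Other Cyp2 members differed less. Cyp2d34 had 76.6, 94.9 and 70.6 CPM in KO and 124, 100 and 111 in WT, groups that did not overlap (-0.47 ± 0.16, adjusted p = 0.278). Cyp2d13 lay the other way, at 1.80, 2.97 and 1.56 against 0.855, 0.968 and 1.46 CPM (0.95 ± 0.40, adjusted p = 0.381). Cyp2c69 had 1.34, 1.05 and 2.15 CPM in KO and 0.214, 0 and 0.730 in WT (2.29 ± 0.85, adjusted p = 0.326), but 54.3% of its transcript windows occur in other genes, mainly Cyp2c40. Several members varied within a genotype, as Cyp2c68 did with 3.67 CPM in WT 2 against 20.8 to 30.9 in the other 5 libraries, and Cyp2d12 with 3.11 to 17.9 CPM in WT. Cyp2c68 and Cyp2d12 were named after their values were seen.

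Among 9 tested Cyp4 members 4 were above 0 and 5 below (median -0.03). Cyp4f18, a leukotriene B4 hydroxylase of myeloid cells, had 9.91, 4.83 and 3.92 CPM in KO and 12.4, 15.4 and 11.2 in WT. The groups did not overlap, and the log2 fold change was -1.06 ± 0.35 (adjusted p = 0.277 in edgeR, 0.0804 in DESeq2). Neutrophil markers were also lower in KO, and all 7 were below 0 (median -2.78). Their sum was 68.8, 62.7 and 59.2 CPM in KO and 441, 143 and 200 in WT. Within WT the order differed from that of Cyp4f18, which was highest in WT 2, where the sum was lowest. Ly6g made 53.2 CPM of the KO 3 sum. Without Ly6g, a check added after the values were seen, the sum was 33.1, 9.05 and 5.96 CPM in KO and 193, 92.0 and 72.7 in WT. Macrophage markers summed to 386, 259 and 99.2 CPM in KO 1, KO 2 and KO 3 and to 297 to 549 in WT. The part of these cells in the Cyp4f18 values was not tested. Cyp4v3, a fatty acid hydroxylase, stood at 13.4, 14.5 and 16.9 CPM in KO and 22.9, 20.6 and 19.6 in WT, again without overlap (-0.50 ± 0.17, adjusted p = 0.291). Cyp4f14, the most abundant of the family, had 201 ± 34.5 CPM in KO and 231 ± 39.3 in WT (-0.20 ± 0.19), and Cyp4f16 75.2 ± 11.0 and 56.4 ± 12.2 (0.42 ± 0.19, adjusted p = 0.396).

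In the Cyp1 family Cyp1b1, which oxidises oestrogens and polycyclic hydrocarbons, was the tested member. It had 0.873, 0 and 1.02 CPM in KO and 0.513, 0.815 and 2.13 in WT (-0.82 ± 0.92, adjusted p = 0.746). Cyp1a1 was too low to test and averaged 0.218 and 0.223 CPM. Summed over all 39 P450 members, levels were 1291, 1981 and 2660 CPM in KO and 2565, 1898 and 1983 in WT, which overlapped.

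Of the conjugating enzymes, only the mu-class glutathione S-transferases had a summed level that did not overlap between genotypes. Among all tested genes, taken singly, 9.34% did not overlap with KO higher and 10.2% with KO lower. No such share was computed for family sums, so 1 family without overlap is a description only. The 7 mu-class genes form 1 cluster on chromosome 3 (107895821 to 108044894 on GRCm38). Their sum was 405, 329 and 375 CPM in KO and 277, 271 and 296 in WT, a log2 ratio of the means of 0.39. All 7 had log2 fold changes above 0 (median 0.37), where 54.2% of all tested genes were above 0. None passed in edgeR, and 5 had groups that did not overlap with KO higher, as 9.34% of all tested genes did. Without KO 3 the median was 0.38 with 7 of 7 above 0. Without KO 1 it was 0.26 with 6 of 7 above 0, and the other single-library fits gave 7 of 7 above 0.

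Gstm3 differed most. It had 29.8, 31.4 and 40.7 CPM in KO and 15.3, 19.4 and 18.6 in WT, so that every KO library lay above every WT library (0.94 ± 0.19, adjusted p = 0.105 in edgeR, 0.00146 in DESeq2). Gstm1 had 231, 182 and 205 CPM in KO and 167, 158 and 160 in WT (0.35 ± 0.14, adjusted p = 0.371). Gstm4 had 13.2, 11.8 and 16.5 against 9.37, 10.8 and 10.1 CPM (0.46 ± 0.20, adjusted p = 0.386). The ratio of Gstm3 to Gstm1 was 0.129, 0.173 and 0.199 in KO and 0.0916, 0.123 and 0.116 in WT, without overlap. This ratio was formed after the values were seen and has no test. Gstm5 and Gstm6 lay higher in each KO library too, at 31.4 ± 1.37 against 26.4 ± 0.985 CPM and at 7.42 ± 1.27 against 4.94 ± 1.19. Gstm2 and Gstm7 overlapped between the groups (0.37 ± 0.18 and 0.24 ± 0.29). Identity between reading frames ran from 69.1% to 89.5% over the pairs of these genes and was highest for Gstm1 and Gstm3. Of their 50-base windows, 28.8% of those of Gstm3, 18.9% of those of Gstm1 and 0% of those of Gstm4 and Gstm5 occur in other genes. Smooth muscle markers also had sums that did not overlap, 3710 to 4484 CPM in KO and 2105 to 3373 in WT, and the part of muscle in the Gstm values was not tested.

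**Figure D4:**
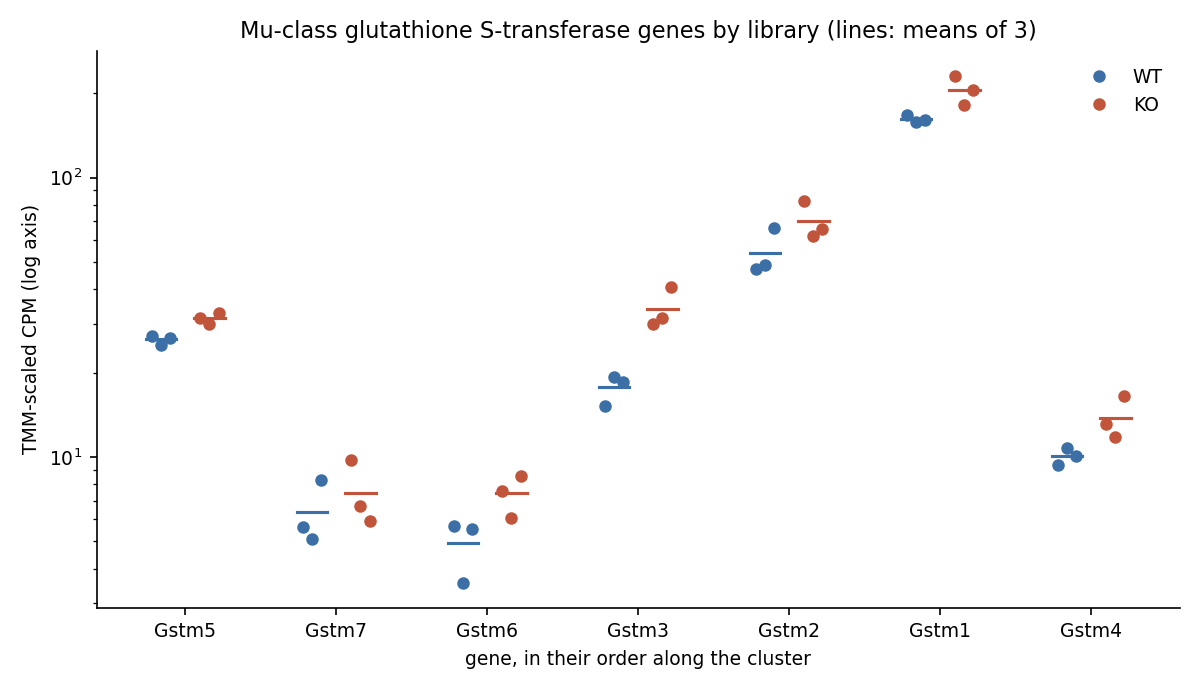
TMM-scaled CPM on a log axis for the 7 mu-class genes, in their order along the cluster (horizontal axis). Points are libraries (WT blue, KO red) and lines the means of 3. For 5 genes all KO points lie above all WT points, most widely for Gstm3, while Gstm2 and Gstm7 overlap.

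Of the other 11 tested glutathione S-transferases, 9 were highest in KO 3, and Gsta3 and Gstp3 were not. Gstp1 had 308, 259 and 520 CPM in KO and 285, 226 and 239 in WT (0.54 ± 0.27, adjusted p = 0.444), and 0.18 without KO 3. Gstp2, whose reading frame is 98.1% identical to that of Gstp1, had 67.8, 79.2 and 165 against 73.9, 63.1 and 69.4 CPM, with 54.3% of its windows shared. Gstp3 lay the other way, at 3.80, 2.54 and 3.97 against 5.22, 2.95 and 4.43 CPM, groups that overlapped (-0.29 ± 0.32, adjusted p = 0.743). Gsto1 averaged 416 ± 86.1 and 377 ± 46.9 CPM, the organelle enzyme Gstk1 56.2 ± 22.0 and 48.3 ± 5.82, and Gsta4, which conjugates the lipid aldehyde 4-hydroxynonenal, 31.6 ± 18.2 and 33.7 ± 6.22. Gsta3 had 15.4, 11.2 and 14.4 CPM in KO and 6.29, 6.72 and 12.8 in WT (0.67 ± 0.31, adjusted p = 0.399). Gsta1 averaged 18.0 ± 11.6 and 16.0 ± 6.90 CPM, and 90.5% of its windows occur in other genes, so its reads are hard to place. The theta-class genes lay near 0, with Gstt3 at 0.15 ± 0.15, and Gstt2 had 24.2, 22.2 and 35.7 against 21.8, 22.2 and 22.2 CPM (0.31 ± 0.21), groups that by a narrow margin did not overlap. Gsto2 had 0.655 ± 0.277 CPM in KO and 0.301 ± 0.130 in WT and was not tested. Over all 21 GST members the sum was 1365, 1192 and 1885 CPM in KO and 1293, 1099 and 1148 in WT, with 16 of 18 tested members above 0, and 12 of 18 without KO 3.

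At the Ugt1a locus none of the 3 abundant genes passed, while 2 ratios between them did not overlap between the genotypes. Ugt1a1, the bilirubin-conjugating enzyme, had 88.5, 114 and 280 CPM in KO and 297, 219 and 148 in WT (-0.46 ± 0.43, adjusted p = 0.700). Ugt1a7c had 248, 235 and 374 CPM in KO and 198, 214 and 172 in WT, without overlap (0.55 ± 0.21, adjusted p = 0.337). Ugt1a6a, which conjugates planar phenols, had 102, 128 and 252 against 115, 123 and 85.9 CPM (0.57 ± 0.32, adjusted p = 0.495). The ratio of Ugt1a7c to Ugt1a1 was 2.81, 2.06 and 1.33 in KO and 0.668, 0.979 and 1.16 in WT, and that of Ugt1a6a to Ugt1a1 was 1.16, 1.12 and 0.898 against 0.386, 0.562 and 0.580. Neither ratio overlapped between the groups. Both were formed after the values were seen, share Ugt1a1 as denominator and have no test. How often ratios of other gene pairs would not overlap was not computed. The Ugt1a genes lie on chromosome 1 (88095062 to 88220002) and share their 3' exons, so that 52.1% to 58.2% of the windows of these 3 genes occur in another Ugt1a gene. How such reads were assigned is not given in the sources used here.

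**Figure D5:**
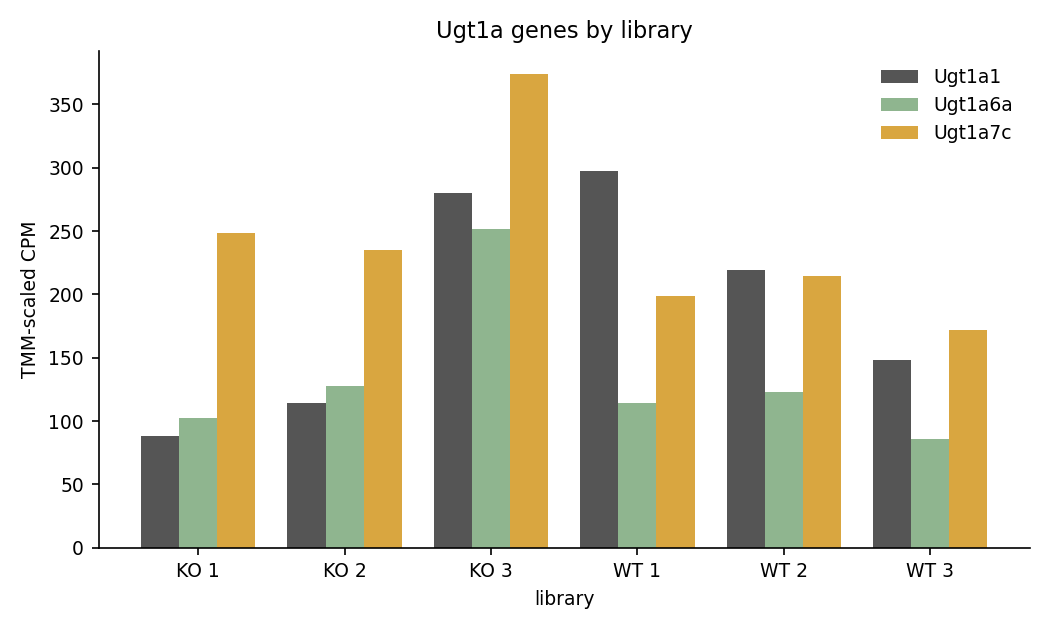
TMM-scaled CPM (bars) of the 3 abundant Ugt1a genes in each library (horizontal axis). Ugt1a7c stands above Ugt1a1 in the 3 KO libraries and in WT 3, and below it in WT 1 and, narrowly, in WT 2.

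All 5 tested Ugt2 members had log2 fold changes above 0 (median 0.56), which became 2 of 5 without KO 3 (median -0.02) and 3 of 5 in limma-voom. Ugt2b34, the most abundant, had 142, 278 and 246 CPM in KO and 206, 146 and 188 in WT (0.30 ± 0.26, adjusted p = 0.671). Ugt2b35 had 12.5, 15.7 and 15.2 against 9.07, 12.0 and 8.42 CPM, without overlap (0.56 ± 0.21, adjusted p = 0.333). Ugt2b5 ranged from 8.63 to 41.2 CPM within KO, highest in KO 3, and from 7.07 to 17.0 in WT.

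The 4 Sult1 genes, which sulfate phenols and catecholamines, were all above 0 (median 0.32, and 0.15 without KO 3), and none passed. Sult1a1 had 150, 202 and 267 CPM in KO and 147, 165 and 112 in WT, where WT 2 lay above KO 1 (0.54 ± 0.24, adjusted p = 0.386). Sult1b1 averaged 121 ± 38.1 and 106 ± 25.6 CPM (0.19 ± 0.27), and Sult1c2 30.4 ± 6.91 and 23.6 ± 4.62 (0.36 ± 0.22). Their sum was 296, 493 and 562 CPM in KO and 386, 328 and 328 in WT, so KO 1 lay below every WT library.

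Other genes of the pathway came from 5 lists. None of their 110 tested genes passed in edgeR. An unadjusted p below 0.05 was found for 8 genes with KO higher and 8 with KO lower, which all tested genes had at 5.17% and 7.85%.

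Of 17 tested sensors and regulators, 9 were above 0 and 8 below (median 0.01). The aryl hydrocarbon receptor gene Ahr stood at -0.36 ± 0.32 (adjusted p = 0.684) and the pregnane X receptor gene Nr1i2 at -0.02 ± 0.17 (0.973). Ppara, the fatty acid sensor, had 8.37, 7.56 and 11.2 CPM in KO and 12.9, 13.7 and 12.0 in WT, without overlap (-0.50 ± 0.21, edgeR adjusted p = 0.376).

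The 14 genes of P450 electron supply and haem synthesis split 8 above and 6 below 0 (median 0.09). Por, the reductase that feeds P450 enzymes, had 158, 130 and 148 CPM in KO and 216, 173 and 173 in WT (-0.36 ± 0.16, adjusted p = 0.382). Cyb5b, a cytochrome b5 of the outer mitochondrial membrane, lay the other way with 346, 389 and 407 against 229, 240 and 293 CPM (0.58 ± 0.17, adjusted p = 0.231 in edgeR, 0.032 in DESeq2). Neither gene's groups overlapped. Of 16 genes that make the donors for conjugation, 14 were above 0 (median 0.20), against 54.2% of all tested genes. Among them were Ugdh, which makes UDP-glucuronic acid (0.69 ± 0.35), Gclm of glutathione synthesis (0.45 ± 0.19) and Papss1, which makes the sulfate donor (0.30 ± 0.14). Ugdh had 230, 391 and 660 CPM in KO and 295, 259 and 240 in WT, so KO 1 lay below every WT library, and without KO 3 its log2 fold change was 0.23. Gclm stood at 0.25 without KO 3 and Papss1 at 0.27. In the same fit Slc35d1, Gclc and Papss2 of this list fell below 0 (-0.38, -0.10 and -0.003), and no gene of the list moved above 0.

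Among 42 other phase I and II enzymes, 28 were above 0 and 14 below (median 0.17), against 54.2% of all tested genes above 0. These counts include KO 3. Without it Aldh1a1 and Ces1g of this list fell below 0 (-0.24 and -0.56), and moves in either direction were not counted. DESeq2 called 2 of them higher and 1 lower, where it called 0.806% of all genes higher and 2.97% lower. Ces2a, an intestinal carboxylesterase, had 117, 157 and 193 CPM in KO and 283, 344 and 294 in WT (-0.98 ± 0.21, adjusted p = 0.115 in edgeR, 0.000962 in DESeq2). Cbr3, a carbonyl reductase, had 26.7, 25.0 and 72.9 against 15.0, 13.1 and 19.0 CPM (1.40 ± 0.41, adjusted p = 0.224 in edgeR, 0.0156 in DESeq2). The quinone reductase Nqo1 had 35.4, 33.1 and 76.7 against 21.9, 22.0 and 27.5 CPM (1.03 ± 0.32, adjusted p = 0.253 in edgeR, 0.0497 in DESeq2). The groups did not overlap for any of these genes, and KO 3 was far above the other KO libraries for Cbr3 and Nqo1, which stood at 0.72 and 0.53 without it. Of 21 tested transporters, 10 were above 0 and 11 below (median -0.16). Abcb1b, a P-glycoprotein gene, had 2.67, 3.22 and 2.15 CPM in KO and 7.14, 4.33 and 5.05 in WT (-1.04 ± 0.30, edgeR adjusted p = 0.220).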

How the data were processed

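The deposited table gives the authors' raw read counts and TPM per gene for 6 colon libraries. GRCm38, mm10 and mm39 are listed as genome builds, per the submitters' processing notes. For the aligner, counter, annotation and strand setting, no source used here gives an entry. The members, gene lists and rules were chosen with earlier results of these data known. Counts were scaled by TMM factors, filtered with filterByExpr and tested with edgeR 4.0.16 (quasi-likelihood, Benjamini-Hochberg over 14553 genes, threshold 0.05), using R 4.3.3. Total counts of 15786214 to 22932125 put the floor of 3 counts at 0.128 to 0.186 CPM per library. DESeq2 1.42.0, limma 3.58.1 and other scalings and filters were alternatives. The edgeR step was tested on simulated data. Standard errors of edgeR fold changes were the fold change divided by the square root of the F statistic. Deposited TPM values ranked levels between genes. Named genes were, per family, the 2 most abundant and the 2 with the smallest p, those called or with groups apart, and in each list those with the smallest p. Positions come from GENCODE M21 (GRCm38), where 75 of 76 members matched by identifier. Transcript windows of 50 bases found in another gene were counted as shared. Genes that overlap or share such windows are uncertain.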

Additional observations from a re-analysis of the deposited data

How the results depend on the processing

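With edgeR, 1 member was called lower and 0 higher. The count lower was 0 with median-ratio factors, 0 without an expression filter and 2 in DESeq2, which also called 1 higher, and it ranged from 0 to 1 when 1 library was left out. In the pathway lists, where edgeR called none, DESeq2 called 1 redox or haem gene (Cyb5b) higher. It also called 2 other phase I and II enzymes (Cbr3 and Nqo1) higher and 1 (Ces2a) lower. Of all genes DESeq2 called 0.806% higher and 2.97% lower. In limma on log2(TPM + 1), 1 of the other phase I and II enzymes was called lower, as were 66 of 14553 genes. The causes were not tested. Same-numbered libraries did not deviate together (correlations -0.42, -0.15 and -0.43), and with the replicate number as a block 1 member was called lower and 0 higher. When 1 library was left out, the log2 ratio of summed levels ranged from -0.39 to 0.11 for P450, -0.07 to 0.46 for UGT, 0.12 to 0.46 for GST and 0.18 to 0.60 for SULT. With 3 libraries a group and low counts for Cyp3a25 and Cyp3a44, small differences were not detectable.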
